A study of Mus musculus with 3 samples.

Results

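The 3 D-type cyclins Ccnd1, Ccnd2 and Ccnd3, their catalytic partners Cdk4 and Cdk6, and the CDK inhibitors Cdkn1b and Cdkn1c were followed through cycling and non-cycling cells of each lineage in neonatal mouse cortex. These 7 genes were taken by symbol from the 27998 genes of the deposited matrices, whatever their level, and all 7 were present. Each of 3 genotypes gave 1 single-cell library. The control carried floxed Map2k1 and Map2k2, the genes for the ERK-activating kinases MEK1 and MEK2, and its genotype label reads WT. The Emx1-Cre mutant (EMX-Cre_MAP2K1/2-dcko) and the hGFAP-Cre mutant (hGFAP-Cre_MAP2K1/2-dcko) carried the same floxed genes with Cre, to delete both where Cre is active. Emx1 drives Cre in early cortical progenitors, and the human GFAP promoter drives it later, in radial glia. All 3 groups received FlashTag, a dye taken up by cells that line the ventricle, on embryonic day 18, and tdTomato-positive cells of the dorsal cortex were sorted on postnatal day 2. The labels do not name the tdTomato allele, the number of pups pooled per library, or whether the control carried Cre.

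A D-type cyclin binds CDK4 or CDK6, and the active kinase starts the phosphorylation of the retinoblastoma protein that lets a cell pass from G1 into S phase. Mitogens that signal through ERK are a well known stimulus of cyclin D1 synthesis, whereas cyclin D2 is prominent in cortical intermediate and neuronal progenitors. Cdkn1b and Cdkn1c encode p27Kip1 and p57Kip2, which inhibit cyclin-CDK complexes and accompany cell cycle exit during neurogenesis and gliogenesis.

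Promoter windows were available for 4 of the 7 members, Cdk4, Cdk6, Cdkn1b and Ccnd3, the last with more than 1 start. The windows of Cdk4 and Cdk6 are shown because the kinases, unlike the other members with a window, carried the E-box CACGTG, a motif bound by MYC-family factors that reads the same on both strands. Each covers the 250 bases before the RefSeq start on build GRCm38.p6, 5′ to 3′ on the plus strand, with each E-box in capitals: Cdk4 at chr10:127063285-127063534 and Cdk6 at chr5:3343643-3343892.
Cdk4: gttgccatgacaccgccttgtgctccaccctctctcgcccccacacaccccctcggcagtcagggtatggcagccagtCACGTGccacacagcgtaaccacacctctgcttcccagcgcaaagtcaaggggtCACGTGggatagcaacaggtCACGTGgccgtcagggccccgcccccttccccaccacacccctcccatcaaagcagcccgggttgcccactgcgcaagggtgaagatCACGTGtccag
Cdk6: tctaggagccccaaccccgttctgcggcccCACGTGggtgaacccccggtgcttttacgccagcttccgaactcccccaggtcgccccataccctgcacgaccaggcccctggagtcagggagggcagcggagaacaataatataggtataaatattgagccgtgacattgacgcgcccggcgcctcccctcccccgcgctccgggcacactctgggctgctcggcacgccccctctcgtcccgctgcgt
The Cdk4 window held 4 copies, at 172, 118, 98 and 11 bases before the start, and the Cdk6 window held 1, at 220 bases before it. The Cdk6 window lies inside the Cdk6 gene span given below (chr5:3341485-3531008), so its copy is not upstream of that gene start. At least 1 copy was in 6.02% of the 32851 promoter windows of this length, and 4 or more copies were in 7 of them. The E2F-type strings TTCCCGC and TTGGCGC, in 3.82% and 1.97% of windows on either strand, were in none of the member windows. A match is a string of letters and no measure of binding.

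The control, Emx1-Cre and hGFAP-Cre libraries held 84016524 to 89917586 UMIs each, and 9520 to 12223 cells per library were kept, with median depths of 5000 to 6427 UMIs. Between 43 and 54 cell barcodes were shared by any pair of libraries. The control cells had the female transcript Xist and both mutants Y-linked transcripts, so sex and genotype cannot be told apart. Map2k1 and Map2k2 counts come from 3′ ends and need not lie in the deleted part, so they do not check the labels. A cell counted as cycling with 4 or more UMIs of 28 S-phase and 41 G2/M genes after thinning to 2500 UMIs, and as non-cycling with 0 or 1. The 646 to 1027 cells per library with 3 or 4 such UMIs lay next to this limit. Of 32 clusters, 28 took the name of 1 of 11 classes from their markers. All 18 astroglial markers were detected in astroglia-like cells and all 11 microglial markers in microglia-like cells of each library. The clusters were named from these same lists, and detection alone does not separate the classes. All 11 microglial markers were also detected in control astroglia-like cells, where they summed to 30.5 CPM and the astroglial markers to 39055 CPM. Levels are summed UMIs scaled to CPM, with exact Poisson 95% intervals, which cover counting error only. A member was called higher or lower at a 1.5-fold difference with intervals apart and at least 10 CPM in either group, and log2 ratios have a pseudocount of 5 CPM. With 1 library per genotype there was no replicate, so no test between genotypes or states was made. Every mutant was set against the same control library.

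Ccnd1 (ENSMUSG00000070348, GRCm38 chr7:144929931-144939925, minus strand), which encodes cyclin D1, was highest in endothelial-like, glial and multipotent progenitor-like cells. In all cells of a class, it stood at 437 CPM in endothelial-like cells and 295 CPM in oligodendrocyte precursor-like cells of the control. Cycling multipotent progenitor-like cells, whose markers include Egfr and Olig genes, had 319 CPM (298 to 342) and cycling astroglia-like cells 251 CPM (241 to 261). Neuronal lineages of the control had little of it: 37.9 CPM in cycling excitatory intermediate progenitor-like cells, 10.6 CPM in cycling cells of the olfactory bulb interneuron lineage and 3.52 CPM in non-cycling excitatory neuron-like cells. The neighbouring levels of 319 and 295 CPM had overlapping intervals. Mural-like cells, also vascular, had less, with 40.4 CPM when cycling and 86.0 CPM when not in the Emx1-Cre library, and ependymal lineage-like cells had 2.91 to 4.89 CPM in the mutants.

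Ccnd1 was higher in the cycling cells of several lineages that expressed it. In astroglia-like cells it was at 251 CPM in cycling and 109 CPM in non-cycling control cells, and at 215 and 52.9 CPM in the hGFAP-Cre library. The Emx1-Cre library showed no such gap, with 139 CPM in cycling and 146 CPM in non-cycling astroglia-like cells. Multipotent progenitor-like cells had 319 against 129.8 CPM in the control and 303 against 78.5 CPM in the hGFAP-Cre library. Of 20 contrasts of cycling with non-cycling cells, Ccnd1 was called higher in 10 and lower in none.

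Ccnd2 (ENSMUSG00000000184, chr6:127125162-127152193, minus strand), which encodes cyclin D2, reached its highest level in dividing neuroblasts of the olfactory bulb interneuron lineage. There it stood at 4106 CPM (4013 to 4201) in cycling control cells and 878 CPM (840.1 to 917) in non-cycling ones, 4.68-fold lower. After thinning, 96.0% of the 176 cycling cells had a Ccnd2 UMI (97.7% unthinned, median depth 9953 UMIs) against 50.3% of non-cycling cells (median 4215). Cajal-Retzius-like cells, early-born neurons that should lack it, had a UMI in 3.45% of cells at a median of 18284 UMIs. Cycling multipotent progenitor-like cells followed with 1836 CPM and cycling astroglia-like cells with 1166 CPM in the control. In multipotent progenitor-like cells the cycling level was 4.19-fold that of non-cycling cells, at 438 CPM. In control astroglia-like cells the non-cycling level of 857 CPM was nearer to the cycling level, and this contrast (log2 0.44) was not called. Non-cycling excitatory neuron-like cells had 35.4 CPM. Like Ccnd1, Ccnd2 was called higher in cycling cells in 10 of 20 contrasts and lower in none.

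Ccnd3 (ENSMUSG00000034165, chr17:47505051-47599691, plus strand), the gene of cyclin D3, was called in the fewest contrasts among the cyclins. Control astroglia-like cells had 62.4 CPM (57.5 to 67.6) when cycling and 71.7 CPM (66.6 to 77.0) when not, and multipotent progenitor-like cells 90.1 and 89.7 CPM. It was called higher in cycling cells in 3 of 20 contrasts. Those were the control interneuron lineage (32.5 against 11.4 CPM), hGFAP-Cre oligodendrocyte precursor-like cells (109.7 against 51.1 CPM) and hGFAP-Cre intermediate progenitor-like cells (29.2 against 16.8 CPM). Endothelial-like cells of the control had 141 CPM in all.

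Cdk4 (ENSMUSG00000006728, chr10:127063534-127067920, plus strand) was present in every class. Its control level ran from 109 CPM in non-cycling Cajal-Retzius-like cells through 380.0 CPM in non-cycling excitatory neuron-like cells to 1102 CPM in the cycling interneuron lineage. In the 2 classes where cycling and non-cycling control cells were furthest apart, it was at 745 against 315 CPM (astroglia-like) and 1102 against 506 CPM (interneuron lineage). Multipotent and intermediate progenitor-like cells had a high level in both states, with 1044 against 952 CPM and 1084 against 956 CPM, and neither was called. Ependymal lineage-like cells were an exception: in the Emx1-Cre library the cells scored as cycling had 185 CPM and those scored as non-cycling 324 CPM. As background, differentiating multiciliated cells switch on part of the mitotic machinery, so a cycle score in this class need not mark division.

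Cdk6 (ENSMUSG00000040274, chr5:3341485-3531008, plus strand) had its widest gap between the states in the control interneuron lineage. It was at 121 CPM (105 to 138) in cycling control cells of that lineage and 2.63 CPM (0.964 to 5.72) in non-cycling ones. The log2 ratio was 4.05, and the call held under all 11 alternatives that gave a value, between 2.64 and 5.07. The hGFAP-Cre library had a smaller gap in this lineage, 102 against 37.6 CPM and a log2 ratio of 1.33. In control intermediate progenitor-like cells it was at 274 and 160.0 CPM, and in multipotent progenitor-like cells at 246 and 206 CPM, so cells with few cycle transcripts still had it in these classes. Astroglia-like cells had 158 CPM when cycling and 60.6 CPM when not. Non-cycling excitatory neuron-like cells had 4.81 CPM.

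Cdkn1b (ENSMUSG00000003031, chr6:134920401-134925513, plus strand), the gene of p27Kip1, was called between the states in few contrasts at the RNA level. It was at 138 CPM in cycling and 204 CPM in non-cycling control astroglia-like cells, and at 237 and 309 CPM in intermediate progenitor-like cells, neither called. In the control interneuron lineage it went the other way, with 272 CPM in cycling and 162 CPM in non-cycling cells. That call ended with doublets kept and at resolution 2. Of 20 contrasts it was called higher in cycling cells in 1 and lower in 2. The lower calls were in hGFAP-Cre intermediate progenitor-like cells (188 against 343 CPM) and hGFAP-Cre astroglia-like cells (109 against 172 CPM). They held under 8 and 6 of 11 alternatives. The p27 protein is controlled largely by degradation, which RNA counts do not measure.

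Cdkn1c (ENSMUSG00000037664, chr7:143458339-143461050, minus strand), the gene of p57Kip2, was the member called lower in cycling cells most often, in 6 of 20 contrasts and higher in none. Multipotent progenitor-like cells had 43.1 CPM (35.4 to 52.0) when cycling and 176 CPM (159 to 194) when not in the control, and 29.4 and 191 CPM in the hGFAP-Cre library. hGFAP-Cre oligodendrocyte precursor-like cells had 18.3 CPM (8.77 to 33.6) when cycling and 251 CPM (223 to 282) when not, 13.7-fold apart. The same class of the Emx1-Cre library had 31.0 and 44.8 CPM. In control intermediate progenitor-like cells it was at 23.7 and 71.3 CPM. The other calls were in Emx1-Cre astroglia-like cells (17.9 against 161 CPM) and hGFAP-Cre intermediate progenitor-like cells (7.20 against 17.96 CPM). The remaining 14 contrasts were not called. Among these, control cells of the interneuron lineage had 76.2 CPM when cycling and 61.7 CPM when not. Control astroglia-like cells had 22.01 and 14.9 CPM, hGFAP-Cre astroglia-like cells 7.70 and 11.2 CPM, and Emx1-Cre intermediate progenitor-like cells 10.4 and 10.5 CPM. Postmitotic Cajal-Retzius-like cells had 139 CPM.

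**Figure D1:**
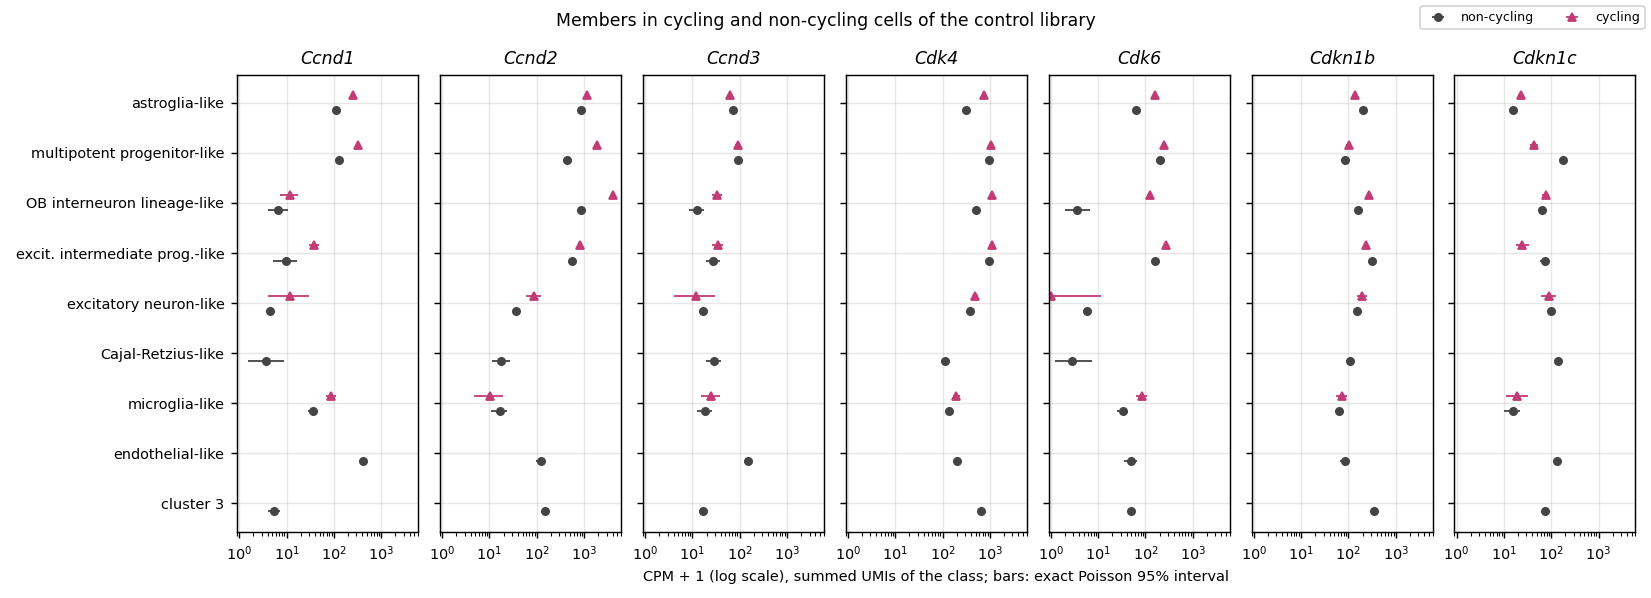
Level of each member in the control library (CPM + 1 on a log axis) for each class with at least 50 cells; triangles are cycling and circles non-cycling cells, and bars are exact Poisson 95% intervals. Ccnd2 in the interneuron lineage (4106 against 878 CPM), Cdk6 in the same lineage (121 against 2.63 CPM) and Cdkn1c in multipotent progenitor-like cells (43.1 against 176 CPM) show wide gaps between the states.

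The calls between the states were spread unevenly over the members. Of 20 contrasts, Ccnd1 and Ccnd2 were called higher in cycling cells in 10 each, Cdk4 and Cdk6 in 6 each and Ccnd3 in 3. Cdkn1c was called lower in 6, and the remaining 14 contrasts of this gene were not called. Ccnd1 and Cdkn1c were each tested in 16 of the 20 contrasts and Cdk6 in 19, as both groups had under 10 CPM in the others. In 20 contrasts the 7 genes gave 131 tested values, of which 36 were called higher and 9 lower in cycling cells, 34.4% together. Between 4.22% and 37.5% of all genes tested were called per contrast, 2.15% to 14.4% higher and 1.5% to 23.8% lower. The background differed by lineage, so the counts stand beside it here. In astroglia-like cells 3 of 7 members were called in the control (all genes 32.3%), 1 in the Emx1-Cre mutant (15.7%) and 5 in the hGFAP-Cre mutant (37.5%). In multipotent progenitor-like cells 3 of 7 were called in the control (18.2%) and 3 of 7 in the hGFAP-Cre library (8.98%). The interneuron lineage had 5 of 7 called in the control (31.2%) and 3 of 6 tested in the hGFAP-Cre library (21.1%). Oligodendrocyte precursor-like cells had 4 of 7 called in the hGFAP-Cre library (12.8%) and 0 in the Emx1-Cre library (5.7%). Intermediate progenitor-like cells had 4 called in the control (19.6%), none in the Emx1-Cre mutant (27.3%) and 5 in the hGFAP-Cre mutant (32.9%). In the control and Emx1-Cre astroglia-like cells the members' share was near that of all genes.

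**Figure D2:**
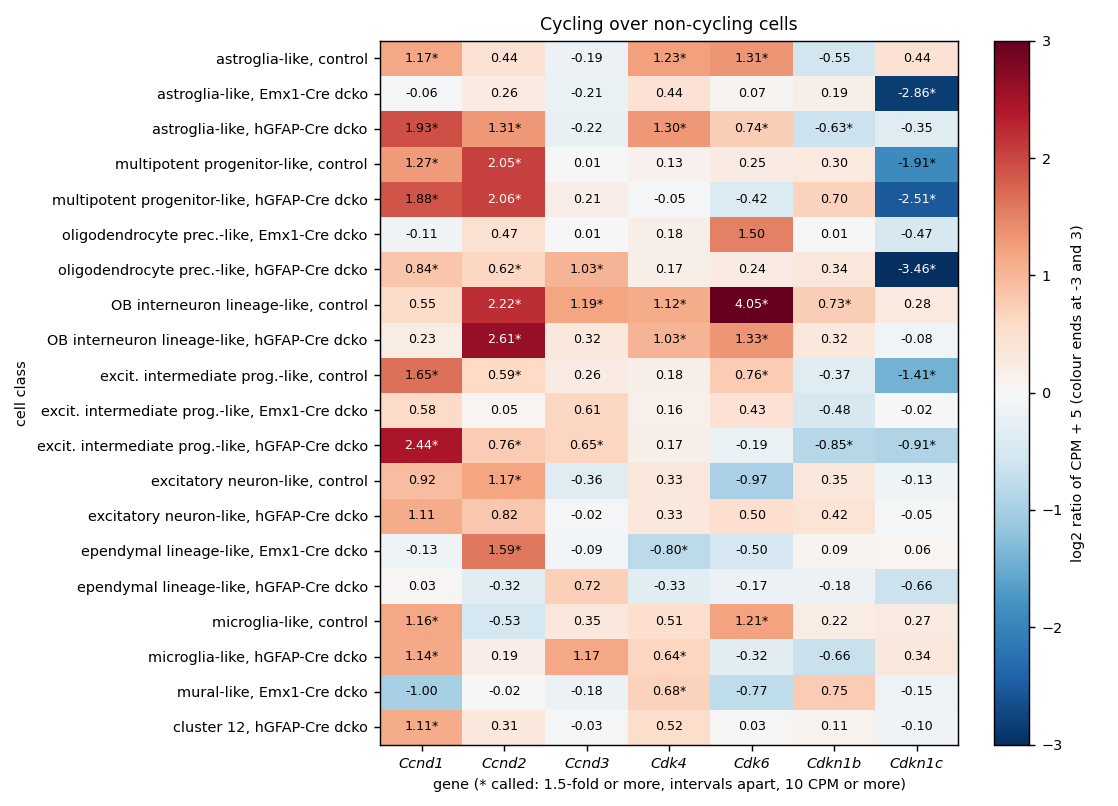
Log2 ratio of cycling over non-cycling cells (CPM + 5) for the 7 members in 20 contrasts, each 1 class in 1 library; red is higher and blue lower in cycling cells, and an asterisk marks a call. Ccnd1 and Ccnd2 carry 10 calls each, all higher, and Cdkn1c carries 6, all lower.

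The remaining classes gave 0 to 2 called members each. Microglia-like cells had 85.9 CPM of Ccnd1 when cycling and 35.8 CPM when not in the control, and 90.4 and 38.4 CPM in the hGFAP-Cre library. Their Cdk6 was at 82.0 and 32.7 CPM in the control. These were the 2 of 7 members called in control microglia-like cells (all genes 9.24%), and 2 of 6 were called in the hGFAP-Cre library (7.48%), Ccnd1 and Cdk4. In mural-like cells of the Emx1-Cre library, Cdk4 was at 646 CPM when cycling and 401 CPM when not, the 1 member called (5.89%). Ependymal lineage-like cells had 2 of 5 called in the Emx1-Cre library (26.4%), where Ccnd2 was at 39.5 against 9.79 CPM, and 0 in the hGFAP-Cre library (13.8%). Excitatory neuron-like cells had Ccnd2 alone called in the control (7.57%), at 86.0 against 35.4 CPM, and no member in the hGFAP-Cre library (4.22%). Cluster 12, unnamed, had Ccnd1 alone called in the hGFAP-Cre library (10.5%), at 42.6 against 17.0 CPM.

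Within cycling intermediate progenitor-like cells of both mutants the cyclins were higher in S-leaning cells; the control had too few S-leaning cells of this class to compare. In the hGFAP-Cre library Ccnd1 was at 151 CPM in 267 S-leaning cells, those with more S than G2/M UMIs, and at 38.2 CPM in 607 G2/M-leaning cells. Ccnd2 was at 769 and 345 CPM and Ccnd3 at 41.0 and 24.3 CPM in the same cells. These 3 cyclins were the members called there (all genes 9.24%). The Emx1-Cre library had the same order, with Ccnd1 at 49.6 and 5.84 CPM, Ccnd2 at 486 and 174 CPM and Ccnd3 at 44.7 and 15.03 CPM in 100 S-leaning and 365 G2/M-leaning cells, again the 3 members called (7.45%). In cluster 12 of the hGFAP-Cre library Ccnd1 was at 72.8 and 9.34 CPM, with Ccnd2 and Ccnd3 also called higher in S-leaning cells (5.28%). In astroglia-like cells only Ccnd3 of the Emx1-Cre library was called, at 34.7 against 18.6 CPM (all genes 6.85%), and no member in the control (11.6%) or the hGFAP-Cre library (6.16%). In the control interneuron lineage Cdk6 and Cdkn1c were lower in S-leaning cells, at 84.7 against 138 CPM and 47.7 against 89.5 CPM (6.35%).

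Counted over both mutants, Ccnd2 was the member most often lower. Of 22 contrasts of a mutant with the control in the same class and state, it was called lower in 15 and higher in none, 4 of 8 in the Emx1-Cre and 11 of 14 in the hGFAP-Cre mutant. In the Emx1-Cre mutant Ccnd3 was called lower more often, in 5 of 8, and in the hGFAP-Cre mutant in 3 of 14. Ccnd1 was tested in 13 of the 22 contrasts and Cdk6 in 19, the other members in all 22. All 7 members together gave 142 tested values, of which 45 were called lower and 14 higher, 41.5%. Between 6.17% and 41.4% of all genes tested were called per contrast, 2.57% to 9.9% higher and 3.61% to 32.2% lower. The median log2 ratio of all genes tested lay between -0.32 and -0.02, and scaling by the median ratio over genes brings it to near 0. Lower calls are therefore to be read against that shift.

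In the interneuron lineage Ccnd2 was lower in both mutants. Cycling cells had 4106 CPM (4013 to 4201) in the control and 1503 CPM (1408 to 1602) in the hGFAP-Cre mutant, 2.73-fold lower. Non-cycling cells had 878 CPM in the control, 225 CPM (176 to 284) in the Emx1-Cre and 241 CPM (219 to 265) in the hGFAP-Cre mutant. The 13 markers of the lineage summed to 4727, 3022 and 3792 CPM in the control, Emx1-Cre and hGFAP-Cre cells of the class, and 10 cortical interneuron markers to 1593, 2732 and 2891 CPM, none of either list at 0. Gad1 and Gad2 are in both lists, and Erbb4 of the cortical list was among the top genes of cluster 11 of this class. These sums therefore do not separate the interneuron types. The 6 erythroid markers summed to 0.792, 0 and 1142 CPM, with 4, 6 and 1 of them at 0. The part of other cell types in the differences of this lineage was not tested. The clusters that made up the class differed between libraries, and cluster 11 held 85.9% of its cells in the control, 39.4% in the Emx1-Cre mutant and 53.0% in the hGFAP-Cre mutant. In cluster 11, cells of every state together and 39 of them from the Emx1-Cre library, Ccnd2 was at 1438 CPM in the control, 247 CPM in the Emx1-Cre and 525 CPM in the hGFAP-Cre mutant, called lower in both (8.74% and 17.3% of all genes called). The Ccnd2 calls of this lineage held under every alternative that gave a value.

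Other members differed in either direction in the interneuron lineage. In cycling cells 3 of 7 were called in the hGFAP-Cre mutant, all lower (11.5% of all genes called, 6.69% lower): besides Ccnd2 these were Ccnd3, at 11.2 against 32.5 CPM, and Cdkn1c, at 31.9 against 76.2 CPM. Both of these calls ended in thinned sums, and that of Ccnd3 also with mitochondrial counts under 5% and with cells called 1 by 1. In non-cycling cells of that mutant 3 of 6 were called (16.7%), with Cdk6 higher at 37.6 CPM (29.0 to 47.8) against 2.63 CPM (0.964 to 5.72). The Emx1-Cre mutant had 2 of 6 called there (11.1%), with Cdk6 at 21.9 CPM (8.81 to 45.2) from 76 cells. Among non-cycling cells of cluster 11 alone, Cdk6 was at 10.6 CPM (4.86 to 20.2) in 218 hGFAP-Cre and 2.72 CPM (0.9997 to 5.93) in 493 control cells and was not called. The Emx1-Cre library had too few non-cycling cells there for this comparison. The class call of Cdk6 in the Emx1-Cre mutant held under 4 of 8 alternatives.

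Intermediate progenitor-like cells, which divide to give excitatory neurons, had less Ccnd2 in both mutants and opposite Ccnd1 differences. Ccnd2 was at 837 CPM in cycling control cells, 242 CPM in the Emx1-Cre and 462 CPM in the hGFAP-Cre mutant. Non-cycling cells had 555, 232 and 270.5 CPM, and each of these 4 Ccnd2 calls held under every alternative that gave a value. Ccnd1 in cycling cells was at 37.9 CPM (29.2 to 48.4) in the control, 14.9 CPM (10.9 to 19.9) in the Emx1-Cre and 70.2 CPM (64.6 to 76.3) in the hGFAP-Cre mutant. The 3 intervals did not overlap. S-leaning cells, which had more Ccnd1 in both mutants, were 34 of 149 cycling cells in the control. They were 100 of 481 in the Emx1-Cre and 267 of 897 in the hGFAP-Cre mutant, and the part of this mix was not tested. Non-cycling cells of all 3 libraries had similar, low Ccnd1, at 8.69, 8.30 and 8.84 CPM. The clusters behind this class were alike in the 3 libraries, with 61.8%, 62.9% and 57.1% of its cells in cluster 1. In cycling cells of cluster 9, which lay in the same class, Ccnd1 was at 46.1, 17.3 and 78.9 CPM. The Emx1-Cre call ended with at least 2000 genes per cell, with cycling read from Mki67 or Top2a, and in thinned sums, and the hGFAP-Cre call in thinned sums.

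Cdkn1c was lower in intermediate progenitor-like cells of both mutants. Non-cycling cells had 71.3 CPM (56.7 to 88.5) in the control, 10.5 CPM (7.25 to 14.8) in the Emx1-Cre and 17.96 CPM (14.96 to 21.4) in the hGFAP-Cre mutant. Cycling cells had 23.7, 10.4 and 7.20 CPM. Both non-cycling calls ended with mitochondrial counts under 5% and at resolution 2, without a change of direction. In the Emx1-Cre mutant 4 of 7 members were called in cycling cells (all genes 21.9%) and 3 of 6 in non-cycling cells (20.1%). In the hGFAP-Cre mutant 3 of 7 (25.9%) and 2 of 6 (18.3%) were called.

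Astroglia-like cells had their lowest Cdk6 and Ccnd3 in the Emx1-Cre mutant. Cdk6 was at 158 CPM (150.3 to 166) in cycling control cells, 15.4 CPM (13.2 to 17.9) in the Emx1-Cre and 74.3 CPM (64.2 to 85.6) in the hGFAP-Cre mutant. Non-cycling cells had 60.6, 14.4 and 42.5 CPM. Ccnd3 was at 62.4, 23.7 and 46.2 CPM in cycling and 71.7, 28.2 and 54.7 CPM in non-cycling cells. The Emx1-Cre calls of both genes held under all 11 alternatives in both states. Cdk6 was also called lower in cycling hGFAP-Cre cells, a call that held under 10 of 11 alternatives. This class was made of other clusters in each library: 56.8% of control cells were in cluster 10, 75.8% of Emx1-Cre cells in cluster 7 and 89.8% of hGFAP-Cre cells in cluster 4. In all cells of cluster 13, which all libraries filled, Cdk6 was at 172, 18.01 and 93.4 CPM and Ccnd3 at 61.2, 25.9 and 36.9 CPM. Oligodendrocyte precursor-like cells, 1 cluster with 66, 278 and 253 cells, had Cdk6 at 108 CPM (82.6 to 138), 10.4 CPM (5.396 to 18.2) and 13.5 CPM (8.71 to 19.9). There Cdk6 and Ccnd3 were called lower in both mutants, and Cdkn1c higher in the hGFAP-Cre mutant (all genes 13.4% and 14.3%).

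The cyclins of astroglia-like cells differed by mutant. Ccnd1 was at 139 CPM in cycling Emx1-Cre cells against 251 CPM in the control, a call that ended with scaling by the median ratio. Ccnd2 there was at 1253 against 1166 CPM and was not called. In non-cycling cells the hGFAP-Cre mutant had 52.9 CPM (48.1 to 57.9) of Ccnd1 against 109 CPM (103 to 115) and 298 CPM (286 to 309) of Ccnd2 against 857 CPM (839 to 875), and both calls held under all 11 alternatives. In cycling cells 4 of 7 members were called in the Emx1-Cre (all genes 32.7%) and 3 of 7 in the hGFAP-Cre mutant (24.6%). In non-cycling cells 5 of 7 (41.4%) and 2 of 7 (23.5%) were called. The share of astroglia-like cells scored as cycling was itself 27.8% (26.0% to 29.7%) for the control, 64.5% (62.3% to 66.7%) for the Emx1-Cre mutant and 11.1% (9.83% to 12.4%) for the hGFAP-Cre mutant, with Clopper-Pearson 95% intervals.

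Cdkn1c in non-cycling astroglia-like cells was higher in the Emx1-Cre mutant. Non-cycling cells had 14.9 CPM (12.6 to 17.4) in the control, 161 CPM (147 to 176) in the Emx1-Cre and 11.2 CPM (9.12 to 13.7) in the hGFAP-Cre mutant. After thinning, 0.842%, 11.6% and 0.666% of these cells had a Cdkn1c UMI (3.60%, 21.6% and 1.93% unthinned), at median depths of 7452, 6359 and 5284.5 UMIs. Cycling cells had 22.01, 17.9 and 7.70 CPM. Cluster 7 held most of this class in the Emx1-Cre library and 23, 1445 and 103 cells of the 3 libraries, too few in the control to separate by state. In its cells of every state together, Cdkn1c was at 332 CPM (266 to 409), 67.5 CPM and 69.2 CPM, called lower in both mutants (13.0% and 7.97% of all genes called). These sums pool cycling and non-cycling cells, unlike the class values, so the 2 sets of values are not the same comparison. Cdkn1b was at 204 CPM in non-cycling control cells and 75.6 CPM in the Emx1-Cre mutant, and at 172 CPM in the hGFAP-Cre mutant.

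Multipotent progenitor-like cells could be compared only with the hGFAP-Cre mutant, since the Emx1-Cre library held 8 of them. Ccnd2 was at 1836 CPM (1784 to 1889.8) in cycling control and 812 CPM (748 to 881) in cycling mutant cells, and at 438 and 191 CPM in non-cycling cells. The cycling call ended with mitochondrial counts under 5% (log2 -0.53 in place of -1.17) and the non-cycling call with at least 2000 genes per cell (-0.08 in place of -1.18). Cdk6 was at 246 and 116 CPM in cycling cells. Ccnd1 in cycling cells differed little, at 319 and 303 CPM. In cycling cells 3 of 7 members were called (16.5% of all genes called, 12% lower) and in non-cycling cells 3 of 7 (10.9% called, 6.01% lower), each of them lower. The Ccnd3 call of the cycling cells, at 55.9 against 90.1 CPM, held under 3 of 8 alternatives.

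In excitatory neuron-like cells, Cdk6 was higher in the hGFAP-Cre mutant than in the control, a call that depended on the cell filters. Non-cycling excitatory neuron-like cells had 4.81 CPM (3.81 to 6.01) in the control, 6.11 CPM (4.995 to 7.39) in the Emx1-Cre and 39.7 CPM (36.3 to 43.4) in the hGFAP-Cre library. After thinning, 0.984%, 1.58% and 10.4% (Clopper-Pearson 95% interval 9.22% to 11.7%) of these cells had a Cdk6 UMI (3.61%, 2.999% and 15.7% unthinned) at median depths of 6004, 3596 and 3967 UMIs. In Cajal-Retzius-like cells the shares were 0 of 58 cells, which allows up to 5.17%, 0.302% and 0.417%, at medians of 18284, 6112 and 9021.5 UMIs. Most control cells of the neuron class were in cluster 5 (68.5%) and most hGFAP-Cre cells in cluster 2 (67.0%). In all cells of cluster 2, whatever their state, Cdk6 was at 17.5, 54.4 and 73.5 CPM, called higher in both mutants (8.68% and 16.2% of all genes called), in cluster 5 at 4.50, 7.55 and 16.6 CPM and in cluster 0 at 2.28, 5.02 and 8.03 CPM. The class call ended with at least 2000 genes per cell, where the log2 ratio was 0.08 in place of 2.19, and with mitochondrial counts under 5%. Intermediate progenitor markers summed to 227 CPM in control and 298 CPM in hGFAP-Cre neuron-like cells, and their part in the Cdk6 difference was not tested.

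The other neuronal values were smaller. Non-cycling hGFAP-Cre neuron-like cells had Cdk4 at 610.2 against 380.0 CPM and Cdkn1b at 254 against 152 CPM, Cdkn1c at 60.5 against 97.8 CPM and Ccnd2 at 20.4 against 35.4 CPM. With Cdk6 these were 5 of 6 members called (all genes 19.3%), and of 11 alternatives the Cdkn1c call held under 4, the Cdk4 and Cdkn1b calls under 5 each and the Ccnd2 call under 8. The Emx1-Cre mutant had 1 of 5 called (22.8%), Ccnd3 at 8.55 against 15.6 CPM. The few neuron-like cells scored as cycling, 61 in the control and 76 in the hGFAP-Cre library, gave 3 of 7 calls (6.17%). Among these Cdk6 had no count in the control, where 3 counts would be 8.32 CPM, and 58.2 CPM in the mutant. In cluster 3, unnamed and led by neuronal genes, 2 of 6 members were called in the hGFAP-Cre mutant (13.4%): Cdk6 at 111 against 49.5 CPM and Ccnd2 at 64.4 against 147 CPM.

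**Figure D3:**
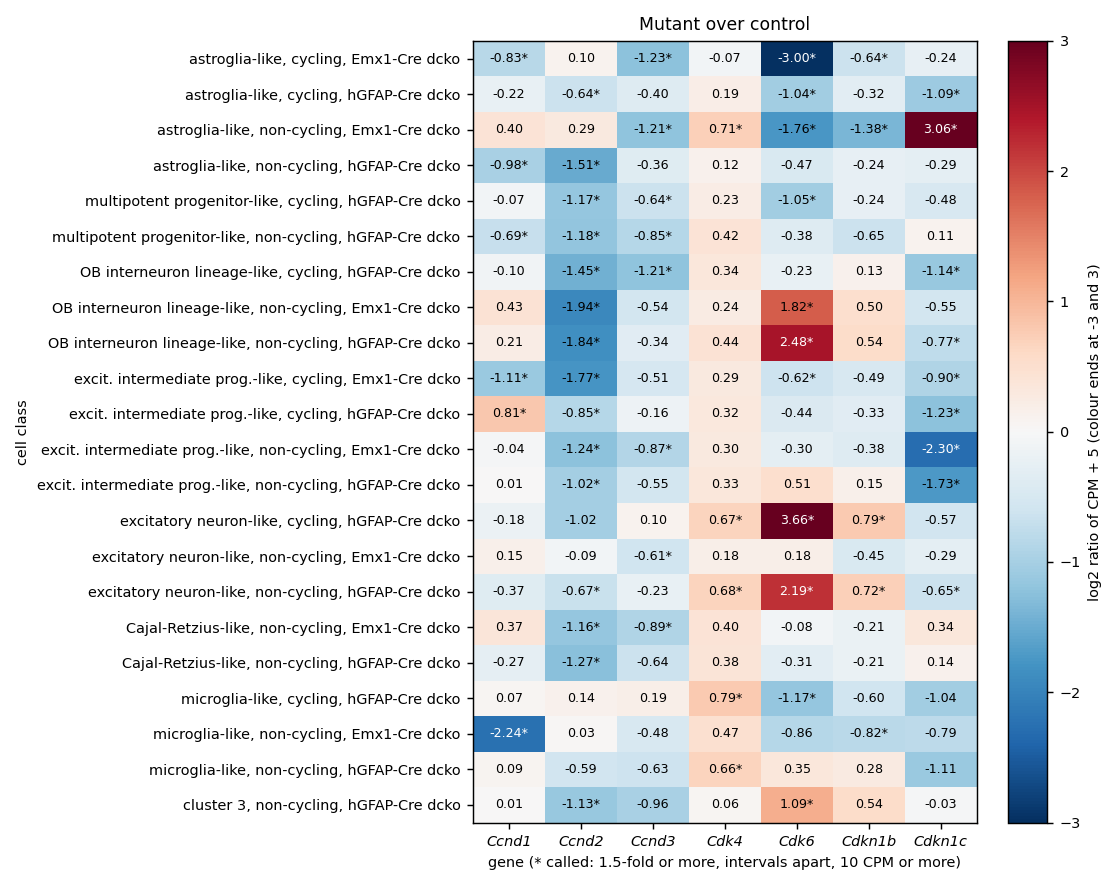
Log2 ratio of each mutant over the control (CPM + 5) for the 7 members in 22 contrasts, each 1 class and state; red is higher and blue lower in the mutant, and an asterisk marks a call. Ccnd2 carries 15 calls, all lower, while Cdk6 carries 5 higher and 6 lower.

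Microglia and endothelial cells arise outside the neural lineages in which these drivers are active, and they also differed between libraries in these genes. Non-cycling microglia-like cells had Ccnd1 at 35.8 CPM (27.2 to 46.3) in the control, 3.65 CPM (0.752 to 10.7) in the Emx1-Cre and 38.4 CPM (28.4 to 50.8) in the hGFAP-Cre library. The class sat in different clusters: cluster 21 held 98.4% of its control, 30.8% of its Emx1-Cre and 72.3% of its hGFAP-Cre cells, and cluster 26 held 65.4% of the Emx1-Cre cells. In all cells of cluster 21, whatever their state, Ccnd1 was at 54.5, 18.97 and 66.8 CPM. These sums pool cycling and non-cycling cells, unlike the class values, so the gaps are not the same comparison. The Emx1-Cre mutant had 2 of 7 members called in non-cycling microglia-like cells (all genes 23.6%) and the hGFAP-Cre mutant 1 (17.9%), Cdk4 at 216 against 135 CPM. Cycling hGFAP-Cre microglia-like cells had 2 of 7 called (10.7%), Cdk4 at 341 against 195 CPM and Cdk6 at 33.6 against 82.0 CPM. Non-cycling Cajal-Retzius-like cells had Ccnd2 at 16.8, 4.71 and 4.06 CPM and Ccnd3 at 27.4, 12.4 and 15.8 CPM. Of 5 members tested there, 2 were called in the Emx1-Cre mutant (18.7%) and 1 in the hGFAP-Cre mutant (14.8%). Endothelial-like cells had Ccnd3 at 141, 80.5 and 75.2 CPM, called lower in both mutants (8.85% and 9.79% of all genes called). The 6 erythroid markers summed to 169 CPM in control and 19926 CPM in hGFAP-Cre endothelial-like cells, and their part in these values was not tested. Ccnd2 of endothelial-like cells was at 109.6, 52.7 and 83.8 CPM, called lower in the Emx1-Cre mutant. Library and genotype cannot be told apart in any of these differences.

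**Figure D4:**
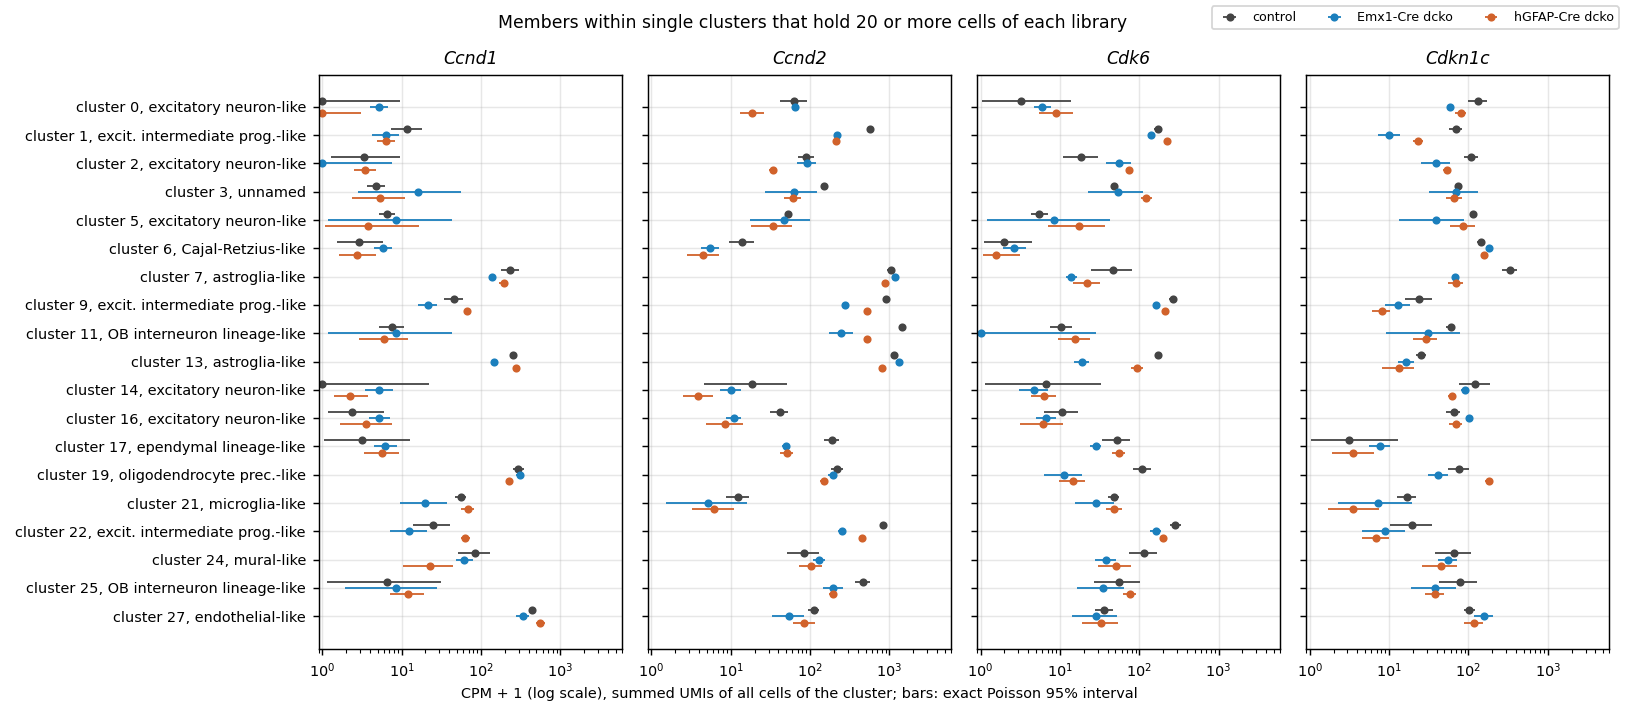
Levels (CPM + 1, log axis) of Ccnd1, Ccnd2, Cdk6 and Cdkn1c in the 19 clusters with at least 20 cells of each library, with a colour per library and exact Poisson 95% intervals. Ccnd2 is lower in both mutants than in the control in clusters 1, 9, 11, 22 and 25, and Cdkn1c in cluster 7 is lower in both mutants (67.5 and 69.2 CPM against 332 CPM from 23 control cells); each sum pools cycling and non-cycling cells.

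Many other genes of the G1/S machinery were higher in cycling cells, more than were not in some classes and fewer in others. Cycling cells were chosen by S-phase and G2/M transcripts, so higher levels of genes expressed with those largely follow from that choice. The shares of all genes called below count both directions, and 2.15% to 14.4% of all genes were called higher per contrast. Of 30 such genes, 29 were tested in control astroglia-like cells, with 20 called higher and 1 lower in cycling cells and a median log2 ratio of 1.40, against -0.11 over all genes, of which 32.3% were called. The interneuron lineage of the control had 21 of 29 higher (median 1.78, 31.2% of all genes called) and intermediate progenitor-like cells 17 of 27 (median 1.80, 19.6%). Fewer were called higher in Emx1-Cre oligodendrocyte precursor-like cells (11 of 30, all genes 5.7%), hGFAP-Cre multipotent progenitor-like cells (11 of 27, 8.98%), control microglia-like cells (11 of 25, 9.24%) and control excitatory neuron-like cells (4 of 17, 7.57%). Cdk1, the mitotic kinase, was at 510.4 CPM in cycling and 9.88 CPM in non-cycling control astroglia-like cells, and the cyclin gene Ccna2 at 262 and 1.06 CPM. Of 16 other inhibitors and exit genes, 13 were tested in the same cells, with 6 higher and 4 lower (32.3% of all genes called). Cdkn2c, the gene of the CDK4 and CDK6 inhibitor p18, was higher in cycling cells, at 160.2 against 30.9 CPM, whereas Btg1, an antiproliferative gene, was lower, at 123 against 388 CPM.

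In the hGFAP-Cre library, the same lists showed Cdkn1a, the p53 target that encodes p21, far above the control in several classes. Non-cycling astroglia-like cells had Cdkn1a at 445 against 4.89 CPM, non-cycling multipotent progenitor-like cells at 401 against 7.21 CPM and non-cycling intermediate progenitor-like cells at 217 against 2.61 CPM. The gap was smaller in Cajal-Retzius-like cells, at 155 against 64.4 CPM, and in non-cycling microglia-like cells, at 314 against 168 CPM. Cdkn1a values of the Emx1-Cre mutant are not given here, so the rise is not shown to be particular to the hGFAP-Cre mutant. In cycling astroglia-like cells the G1/S machinery had 1 gene higher and 12 lower of 30 in the Emx1-Cre mutant (median -0.47 against -0.27 over all genes, of which 32.7% were called) and 1 higher and 11 lower in the hGFAP-Cre mutant (-0.43 against -0.13, 24.6% called). Mycn, which encodes a MYC-family factor, was at 2.89 against 46.5 CPM in the cycling Emx1-Cre astroglia-like cells, while Myc was at 26.8 against 8.95 CPM.

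Across 53 sums of a class, state and library, the genes whose levels were most like each member were named by Pearson correlation over 11385 genes, as a description, since the sums share libraries and depth. Ccnd1 was most like Etv4 (0.84), an ETS factor gene that ERK signalling induces, then Sept2 and Gng12. Ccnd2 was most like Rftn2 (0.86), Tcf3 and Cdca7. Ccnd3 was most like Erf (0.84), Tanc1 and Mfge8. Cdk4 was most like Cdk2ap1 (0.91), Rbbp4 and Snrpe, and Cdk6 most like Rbpj (0.74), Katna1 and Tcf3. Cdkn1b was most like Trim2 (0.86), Kat6b and G3bp2, and Cdkn1c most like Adgrl3 (0.76), Acap3 and Copg1.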

How the data were processed

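Single-cell 3′ libraries of sorted cortical cells were analysed, 1 per genotype. Per the file headers, Cell Ranger 5.0.0 gave the deposited UMI counts of the authors. The build was mm10 per the submitters' processing notes. The values are whole raw counts per gene and barcode. Counting of overlapping genes is not given in the sources used here. Cells with at least 1000 genes and under 10% mitochondrial counts were kept, and doublets called by Scrublet (expected rate 10%) were removed, 4.43% to 8.71% of cells. Using scanpy 1.11.5 and leidenalg 0.10.2, 2000 variable genes without the members, cycle and pathway genes, 30 principal components and 15 neighbours gave Leiden clusters at resolution 1. A cluster took the class with the most markers raised (2-fold or more, in at least 25% of its cells), with at least 3 raised, and stayed unnamed where another class had more markers among its top 10 genes. This naming rule came from an earlier account of these data.

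Counts were summed per class, state and library and scaled to CPM. The 533 control cells under 2500 UMIs had no cycling state and were in none of these sums, which had at least 50 cells. The mutant libraries held no cell under 2500 UMIs. Sums within single clusters over all states had at least 20 cells and included control cells under 2500 UMIs. The calling steps were run on simulated sums with Poisson counting error only, so this check does not cover variation between cells or libraries. The members, gene lists and rules were chosen with earlier results of these data known. The 7 members were always named; from each list, the 4 called genes with the largest log2 ratio per contrast were eligible to be named, and for likeness the 3 genes with the highest correlation among those at 20 CPM or more in any sum. Alternatives changed the cell filters, doublet removal, resolution, class calls, cycling definition, thinning, pseudocount and scaling, and comparison within single clusters was added after the clusters were seen. Gene coordinates are GRCm38. The software was Python 3.11.15 with pandas 2.3.3, numpy 2.4.6, scipy 1.17.1, scikit-learn 1.9.0, igraph 0.11.9 and matplotlib 3.10.9.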

Additional observations from a re-analysis of the deposited data

Results flagged for a closer look

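Ccnd1 in cycling excitatory intermediate progenitor-like cells had opposite differences from the shared control in the 2 mutants. The log2 ratio was -1.11 in the Emx1-Cre mutant and 0.81 in the hGFAP-Cre mutant, from 14.9 and 70.2 CPM against 37.9 CPM in the control. S-leaning cells were 34 of 149 cycling cells of this class in the control, 100 of 481 in the Emx1-Cre and 267 of 897 in the hGFAP-Cre mutant. The part of this mix in the Ccnd1 values was not tested. The difference between the mutants was not tested, since each is 1 library.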

How the results depend on the processing

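With 1 library per genotype, no replicate could be left out. No paired analysis was possible because each group has 1 library and the groups share only replicate number 1. In named classes, 24 of 44 member calls between cycling and non-cycling cells were made under every alternative that gave a value, and 21 of 57 calls between a mutant and the control. Of the 44 and 57 calls, thinned sums ended 10 and 19 calls and scaling by the median ratio 1 and 12. Without a minimum CPM, the share of all genes called was 11.2% in place of 17.9% between cycling states and 11.8% in place of 19.5% between genotypes. With cycling read from Mki67 or Top2a, the control intermediate progenitor-like contrast turned to -0.20 for Ccnd1 (1.65 before) and -0.064 for Ccnd2 (0.59), and Ccnd1 in non-cycling hGFAP-Cre multipotent progenitor-like cells to 0.032 (-0.69). At resolution 2, Cdkn1c in the control intermediate progenitor-like contrast was 0.013 (-1.41). Cdkn1b in non-cycling hGFAP-Cre neuron-like cells turned to -0.39 with at least 2000 genes and to -0.32 with mitochondrial counts under 5% (0.72). Comparison within single clusters reversed no class call in the clusters with at least 50 cells of the state in both libraries, which left out cluster 7 of the control (23 cells). The causes were not tested.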
